A study of Mus musculus with 6 samples.

Results

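The 10 genes described are genes of the pericellular matrix and its receptors, followed in macrophages sorted from liver tumours of mice. They are the matrix glycoprotein genes Fn1, Spp1, Thbs1 and Sparc, the matrix proteoglycan genes Vcan and Bgn, the receptor gene Cd44, and Gpnmb, Adam8 and Lgals3, whose products act at the cell surface. They were taken by name, each gene being represented by the brightest of the probe sets that the platform annotation gives exactly 1 symbol. Of the 10 genes 9 were measured, each by 1 probe set, among 19938 genes in all. Spp1, the osteopontin gene, was not analysed here because no probe set carried its symbol in the annotation used.

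The 6 Affymetrix Mouse Gene 1.0 ST arrays came from C57BL/6 mice with hepa1-6 tumours, grown from a mouse hepatoma cell line implanted in the liver. In all 6 the macrophages had been sorted by flow cytometry and put into Trizol within 4 h. Of the arrays 3 came from mice treated with PLX3397, which inhibits the receptor tyrosine kinases CSF1R, KIT and FLT3, and 3 from mice treated with vehicle. The dose, the length of treatment, the age of the mice, the gate of the sort and the number of animals behind each sample are not stated in the labels. The titles call the samples of each group biological replicates 1 to 3, but do not tell how many animals each one holds. A p-value here thus sets the difference between groups against the variation between these samples, which limma estimates with help from all genes. The description fields add a second name that goes against the titles, of cells given IL4 for the PLX3397 samples and of cells given LPS and interferon-gamma for the vehicle samples. The groups follow the titles and the treatment labels.

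The extracellular matrix is laid down mainly by stromal cells, but macrophages also secrete some of its glycoproteins, which bind integrins and other receptors and so govern how cells adhere and migrate. Fibronectin (Fn1) is a fibril-forming adhesion protein that binds integrins through an RGD motif, thrombospondin 1 (Thbs1) binds CD36 and CD47 and can activate latent TGF-beta, and SPARC (Sparc) is a collagen-binding matricellular protein. Versican (Vcan) and biglycan (Bgn) are chondroitin sulphate proteoglycans, and CD44 is the main cell-surface receptor for hyaluronan and also binds osteopontin. In tumours these proteins are studied as parts of the matrix through which macrophages and tumour cells move.

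Levels are the deposited log2 values, a change is PLX3397 minus vehicle on that scale, and means carry the SD over 3 arrays. A gene was called changed where the limma adjusted p, over all 19938 genes, was under 0.05. The background level, set for each array at the 95th percentile of 1190 genes of odour and pheromone receptors, lay between 3.56 and 3.58 on PLX3397 arrays and between 3.52 and 3.53 on vehicle arrays. All 10 macrophage markers, among them Adgre1, Csf1r and Cd68, were above it on all 6 arrays, 3 of them called higher and 4 lower (3 and 3 without PLX3397 replicate 3). The hepatocyte genes Alb, Ttr, Ahsg and Fgb, the T cell gene Cd3d, the B cell genes Cd79a and Ms4a1, the neutrophil genes Ly6g, Elane, Ltf, Ngp, Cxcr2 and Retnlg and the dendritic cell genes Xcr1, Clec9a and Itgae were at or below it on all 6. Other genes of the same lists were above background on all 3 arrays of at least 1 group. These were 7 of 12 hepatocyte and hepatoma genes, 6 of 12 neutrophil genes, 4 of 9 dendritic cell genes and 3 of 8 lymphocyte genes. Besides the lists given with the results below, 4 of 9 dendritic cell genes, 2 of 8 lymphocyte genes and 4 of 12 neutrophil genes were called higher and 1 neutrophil gene lower. When only genes above background on all 3 arrays of a group were tested, 4 dendritic, 0 lymphocyte and 3 neutrophil genes were called. Among all genes 19.6% were called higher and 18.3% lower, and the counts of every list are to be read beside these shares. The dendritic cell count was 5, and the neutrophil counts were 2 higher and 1 lower, without PLX3397 replicate 3. Without vehicle replicate 2, 3 neutrophil genes were called in all. The lymphocyte count in all was 1 without any 1 of vehicle replicates 1 and 2 and PLX3397 replicates 1 and 2. The part of these genes in the results was not tested.

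PLX3397 replicate 3 stood apart from the other arrays. On it 37 genes exceeded the mean of PLX3397 replicates 1 and 2 by more than 2 log2, and on each of the other 5 arrays 0 genes departed upward that far from the rest of their group. The genes with the largest departures, chosen after their values were seen, are known from other tissues. Car3, an enzyme abundant in fat and muscle, was at 3.01, 3.06 and 9.48 on PLX3397 arrays 1, 2 and 3, and between 3.09 and 3.16 on vehicle arrays. The club cell gene Scgb1a1 was at 2.33, 2.24 and 8.22 on PLX3397 arrays and between 2.49 and 2.69 on vehicle arrays, and the brown fat gene Ucp1 at 3.73, 3.76 and 8.82 on PLX3397 arrays and between 3.58 and 3.77 on vehicle arrays. Bgn and Sparc were 18th and 21st among all genes in this departure, at 3.13 and 2.75 log2. Where the counts of a gene list differ without this array both are given, and the changes of the 9 measured genes are plotted with and without it.

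Macrophages from PLX3397-treated mice had more transcript of Fn1, Thbs1, Adam8, Lgals3 and Gpnmb and less of Cd44, Vcan, Sparc and Bgn. The rises ran from 0.44 log2 for Gpnmb to 4.55 for Fn1, and the falls from 0.60 log2 for Vcan to 2.31 for Bgn. So 5 of the 9 genes were called higher, where 19.6% of all genes were, and 4 were called lower, where 18.3% of all genes were. Changes of at least 1 log2 were called upward for 4 of the 9 and downward for 2, against 3.21% and 4.04% of all genes. The median change over the 9 genes was 0.44, beside 0.04 over all genes. All 3 PLX3397 arrays lay above all vehicle arrays for 5 of the 9 genes and below them for 3, as they did for 27.4% and 21.9% of all genes. Without PLX3397 replicate 3 the same 5 and 4 genes were called, when 18.9% of all genes were called higher, 16.7% lower and 35.6% in either direction. In that fit 4 and 2 of the 9 moved by at least 1 log2, against 3.32% and 3.74% of all genes. The number called lower was 1 without vehicle replicate 2 or 3 and 2 without PLX3397 replicate 1 or 2, as described for Sparc, Bgn and Vcan below. The 9 were chosen with earlier results of these arrays known, so these counts describe them and are no test of the group.

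**Figure D1:**
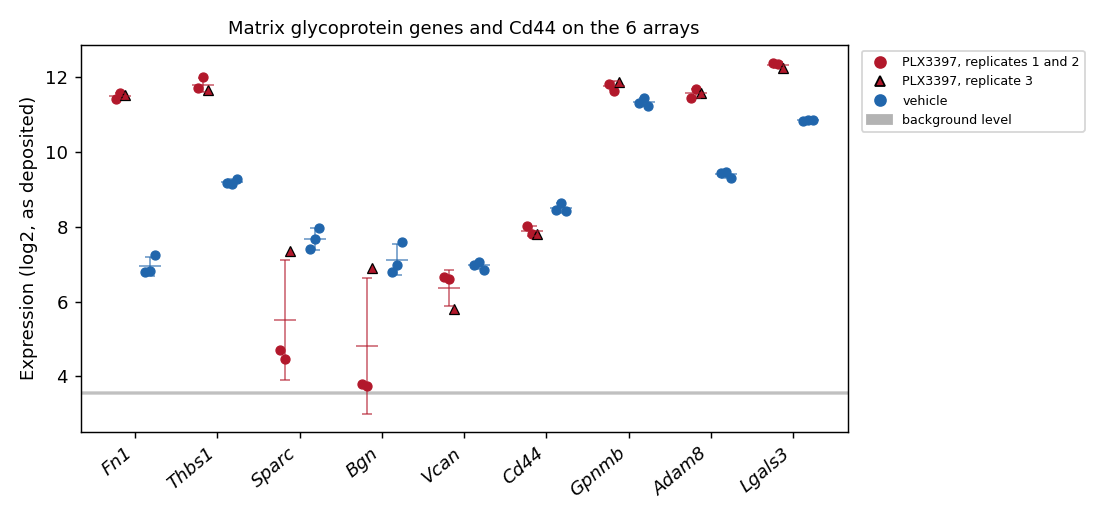
Deposited log2 expression (y axis) of the 9 measured genes (x axis) on each array, with PLX3397 arrays in red to the left, replicate 3 as an outlined triangle, and vehicle arrays in blue to the right. Bars are the mean ± SD of 3 arrays and the grey band is the background level. Fn1, Thbs1, Gpnmb, Adam8 and Lgals3 lie higher on all 3 PLX3397 arrays, and Sparc and Bgn lie low on PLX3397 replicates 1 and 2 but near vehicle on replicate 3.

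Among the matrix glycoproteins, Fn1 had the largest rise. Fn1 was at 11.40, 11.55 and 11.52 on PLX3397 arrays and at 6.78, 6.81 and 7.23 on vehicle arrays. All PLX3397 arrays were high and the groups were more than 4 log2 apart, with a spread inside each group of at most 0.26 (SD). The mean was 11.49 ± 0.08 with PLX3397 and 6.94 ± 0.26 with vehicle, a change of 4.55 (SE 0.12, 95% interval 4.28 to 4.83, limma adjusted p = 4.23e-09) or 23.5-fold. It was the 18th largest rise of the 19938 genes. In a sorted population, a change in the share of expressing cells and a change in RNA per cell cannot be told apart, for Fn1 and for every gene below. The probe set gives a single value for the gene, so the spliced forms of fibronectin were not resolved. Tumours and healing tissue are known to favour these forms differently from plasma. Hepatocytes and endothelial cells also make fibronectin. Of 12 measured hepatocyte and hepatoma genes 1, Trf, was called higher (2 were called without PLX3397 replicate 1), and the summed log2 level of the 12 was 51.6, 53.4 and 55.2 on PLX3397 arrays and 49.5, 48.3 and 49.1 on vehicle arrays. Of 12 endothelial genes 6 were called higher, among them Kdr by 1.70 and Pecam1 by 1.61, with a summed log2 level between 59.2 and 61.5 on PLX3397 arrays and between 52.1 and 53.0 on vehicle arrays, and Tek below background on all 6. The count called higher was 5 without PLX3397 replicate 3. The part of these genes in the change of Fn1 was not tested.

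Thbs1 also rose. It was at 11.70, 11.997 and 11.64 on PLX3397 arrays and at 9.16, 9.13 and 9.27 on vehicle arrays, without overlap. The mean was 11.78 ± 0.19 with PLX3397 and 9.19 ± 0.08 with vehicle, a change of 2.59 (SE 0.11, adjusted p = 5.67e-08) or 6.03-fold. Platelets are a known source of thrombospondin 1, and 5 of 6 measured platelet markers were also called higher. Their summed log2 level ran from 39.0 to 40.6 on PLX3397 arrays and from 35.0 to 35.7 on vehicle arrays, and none of the 6 was below background throughout. Pf4, which macrophages also express, rose by 0.54, Ppbp by 2.52 and Itga2b by 0.51. Only 3 of the 6 were called without vehicle replicate 3, and 3 when arrays were centred on their medians. The part of these genes in the change of Thbs1 was not tested.

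Sparc and Bgn shared a pattern across the arrays. Sparc was at 4.72, 4.46 and 7.34 on PLX3397 arrays and at 7.39, 7.67 and 7.97 on vehicle arrays. Bgn was at 3.80, 3.73 and 6.89 on PLX3397 arrays and at 6.79, 6.98 and 7.57 on vehicle arrays. On PLX3397 replicates 1 and 2 both were far below every vehicle array, with Bgn close to background, while replicate 3 lay just under the vehicle range for Sparc and inside it for Bgn. Over all arrays Sparc fell by 2.17 (SE 0.60, 95% interval -3.50 to -0.84, adjusted p = 0.016) and Bgn fell by 2.31 (SE 0.68, 95% interval -3.83 to -0.78, adjusted p = 0.022). Without PLX3397 replicate 3 the changes were -3.09 for Sparc (SE 0.16, adjusted p = 2.37e-07) and -3.35 for Bgn (SE 0.19, adjusted p = 5.01e-07), or 8.5-fold and 10.2-fold lower. The calls of both genes ended when vehicle replicate 2 or 3 or PLX3397 replicate 1 or 2 was left out instead, with adjusted p from 0.053 to 0.067 for Sparc and from 0.062 to 0.093 for Bgn, and under limma's robust variance setting, with adjusted p of 0.151 and 0.175.

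**Figure D2:**
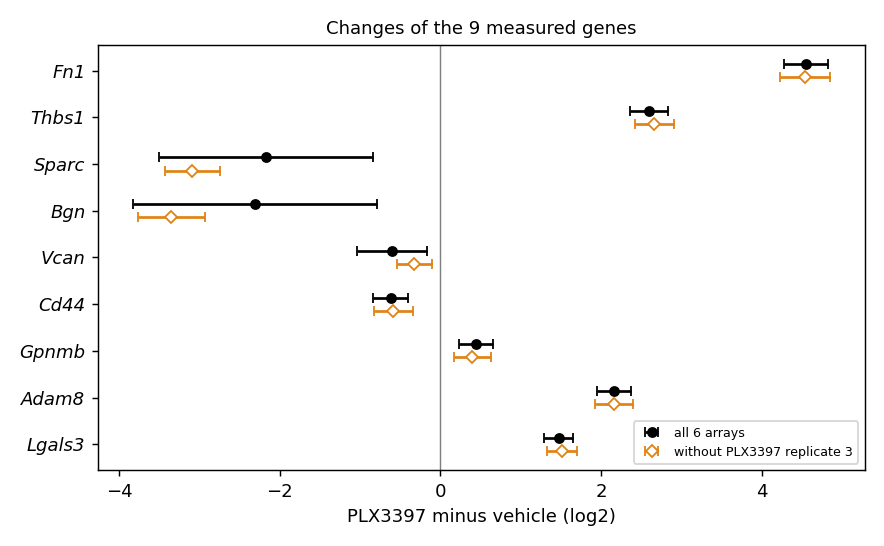
Change of each of the 9 genes (x axis, PLX3397 minus vehicle, log2) over all 6 arrays (black circles) and without PLX3397 replicate 3 (open orange diamonds), with bars for the 95% interval of the limma fit. The array moves Sparc from -2.17 to -3.09, Bgn from -2.31 to -3.35 and Vcan from -0.60 to -0.32, and the other 6 genes by far less.

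Both proteins are textbook products of fibroblasts and stellate cells, so the markers of those cells were set beside them. Of 15 fibroblast and stellate cell genes 13 were higher on PLX3397 replicate 3 than on the mean of replicates 1 and 2, and 4 were higher by over 1 log2. The contractile genes Acta2 and Tagln, the intermediate filament gene Des and the matrix gene Postn departed by 1.81, 1.76, 1.20 and 1.94, and were chosen after their values were seen. The summed log2 level of the list was 70.1, 71.9 and 81.1 on PLX3397 arrays 1, 2 and 3, and 69.6, 70.0 and 72.8 on vehicle arrays. The sums on PLX3397 replicates 1 and 2 lay in the vehicle range. Such a sum joins genes that moved in both directions and genes below background. Sparc and Bgn were lower on PLX3397 replicates 1 and 2 than on vehicle by 3.09 and 3.35. The collagen genes Col1a1 and Col1a2 fell by 0.60 and 0.43, Thy1 rose by 0.46, and the other 12 were not called. Without PLX3397 replicate 3, 2 of the 15 were called higher and 3 lower, and 5 in all were called without PLX3397 replicate 1. Lrat and Reln, which mark stellate cells, were below background on all arrays. Of the 15 genes 11, Acta2 among them, were above background on all 3 arrays of at least 1 group. The part of these genes in the values of Sparc and Bgn was not tested.

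**Figure D3:**
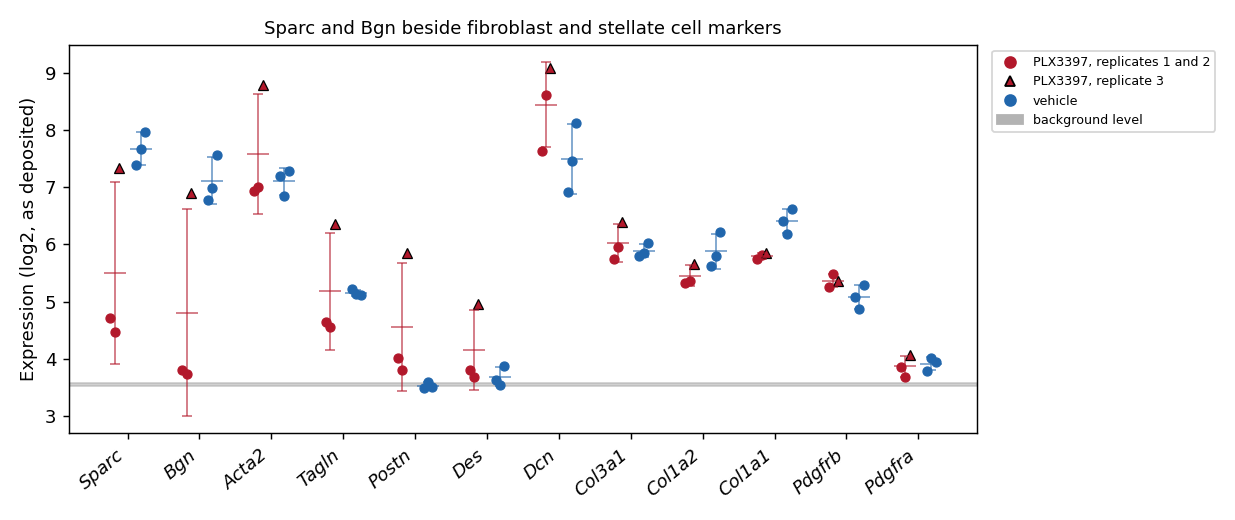
Deposited log2 expression (y axis) of Sparc and Bgn beside 10 of the 15 fibroblast and stellate cell markers (x axis), with PLX3397 arrays in red to the left, replicate 3 as an outlined triangle, and vehicle arrays in blue to the right. Bars are the mean ± SD of 3 arrays and the grey band is the background level. Acta2, Tagln, Postn and Des, chosen after their values were seen, are highest on PLX3397 replicate 3. Means of PLX3397 replicates 1 and 2 lie below vehicle by 3.09 log2 for Sparc and 3.35 for Bgn. Those of the markers lie on both sides of vehicle, as Tagln (-0.56) and Dcn (0.63) show.

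Across the 13502 genes above background on all arrays of a group, Bgn had the profile nearest to Sparc, at a Euclidean distance of 0.43 log2 over the 6 mean-centred arrays. Fabp3, a fatty acid binding protein gene, came next at 1.27, and Cd59a, which encodes an inhibitor of the complement attack complex, at 1.60. Fabp3 was at 5.96, 5.09 and 7.04 on PLX3397 arrays and at 7.51, 7.68 and 7.92 on vehicle arrays. It was lower on PLX3397 replicates 1 and 2 and nearer to vehicle on replicate 3, as Sparc and Bgn were. That likeness follows from the choice of Fabp3 by its distance to Sparc.

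Vcan had a small fall. It was at 6.67, 6.61 and 5.80 on PLX3397 arrays and at 6.97, 7.06 and 6.85 on vehicle arrays. Here PLX3397 replicate 3 was the lowest array, the opposite of Sparc and Bgn, although the groups did not overlap. The change was -0.60 (SE 0.20, 95% interval -1.04 to -0.17, adjusted p = 0.034), and -0.32 without PLX3397 replicate 3 (SE 0.10, adjusted p = 0.024). The call was lost when any 1 vehicle array was left out, at adjusted p of 0.081 (replicate 1), 0.113 (replicate 2) and 0.057 (replicate 3). It was also lost when the arrays were quantile normalised or the robust variance setting was used, both at 0.067.

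Cd44 fell. It was at 8.03, 7.79 and 7.81 on PLX3397 arrays and at 8.44, 8.64 and 8.41 on vehicle arrays. All PLX3397 arrays were low and the groups did not overlap. The mean was 7.88 ± 0.13 with PLX3397 and 8.497 ± 0.12 with vehicle, a change of -0.62 (SE 0.10, 95% interval -0.84 to -0.40, adjusted p = 5.96e-04) or 1.54-fold lower. Cd44 has many spliced forms, which the single probe set does not separate.

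The cell-surface genes rose to different degrees. Adam8 encodes a membrane metalloproteinase-disintegrin of myeloid cells that sheds surface proteins. It was at 11.42, 11.68 and 11.55 on PLX3397 arrays and at 9.42, 9.46 and 9.29 on vehicle arrays. The groups stood about 2 log2 apart, with a change of 2.16 (SE 0.09, 95% interval 1.95 to 2.37, adjusted p = 8.17e-08) or 4.47-fold. Lgals3 encodes galectin 3, a beta-galactoside-binding lectin that macrophages secrete and that cross-links glycoproteins. It was at 12.36, 12.34 and 12.22 on PLX3397 arrays and at 10.82, 10.83 and 10.85 on vehicle arrays. The vehicle arrays were close together (SD 0.01, n = 3), and the change was 1.47 (SE 0.08, 95% interval 1.30 to 1.65, adjusted p = 3.57e-07) or 2.77-fold.

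Gpnmb, a transmembrane glycoprotein of lysosome-rich macrophages and osteoclasts that carries an RGD motif, had the smallest rise. It was at 11.81, 11.62 and 11.85 on PLX3397 arrays and at 11.30, 11.43 and 11.22 on vehicle arrays. The groups did not overlap, but the gap between them was narrow. The change was 0.44 (SE 0.09, 95% interval 0.23 to 0.65, adjusted p = 0.004) or 1.36-fold. Of the 12 genes of the MITF and TFE factors and of lysosomes that are studied with Gpnmb, 6 rose and 4 fell, with a median change of 0.16 beside 0.04 over all genes. The protease gene Ctsk rose by 3.75 (SE 0.11), the proton pump subunit gene Atp6v0d2 by 2.38 (SE 0.10) and the transcription factor gene Tfec by 0.98 (SE 0.14). Mitf, whose product is known to activate Gpnmb, fell by 1.16 (SE 0.10, adjusted p = 1.03e-05).

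The genes with profiles most like those of the other large rises were taken by the same Euclidean distance over the 6 arrays. For Fn1 they were Tnfrsf23 at 0.39, Scimp at 0.42 and the metalloproteinase gene Mmp19 at 0.66 log2. For Thbs1 they were the gelatinase gene Mmp2 at 0.19, Dennd11 at 0.21 and Edil3, which encodes an RGD-bearing matrix protein, at 0.22. For Adam8 they were Napsa at 0.26, Tmeff1 at 0.26 and Tarm1 at 0.28, and for Lgals3 they were Rassf8 at 0.09, Sidt2 at 0.09 and the sialomucin gene Cd164 at 0.10. All of these rose, by 1.44 (Rassf8) to 4.54 (Scimp). With 6 arrays in 2 groups, such a distance reflects mainly the size of the change.

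Receptors of matrix proteins, those of collagen among them, changed unequally. Of 24 receptor genes 7 rose and 5 fell, with a median change of 0.06. Over all genes 19.6% were called higher and 18.3% lower, with a median change of 0.04. Itgb3, the beta 3 chain that pairs with the alpha v chain in a receptor for fibronectin, osteopontin and thrombospondin, was at 7.49, 8.19 and 7.91 on PLX3397 arrays and at 4.74, 4.77 and 4.78 on vehicle arrays. It rose by 3.10 (SE 0.15, adjusted p = 1.82e-07), while its partner Itgav had a change of -0.03 (SE 0.11, adjusted p = 0.876) with overlapping groups. Itga4, the alpha 4 chain of a receptor for spliced fibronectin and VCAM1, fell the most of the list, by 3.62 (SE 0.09), and Itga9, a related chain that binds osteopontin and tenascin, fell by 1.20 (SE 0.09). The alpha 5 and beta 1 chains, which form the classical fibronectin receptor, fell by less, Itga5 by 0.30 (SE 0.08) and Itgb1 by 0.45 (SE 0.10). Itgb8 fell by 1.25.

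**Figure D4:**
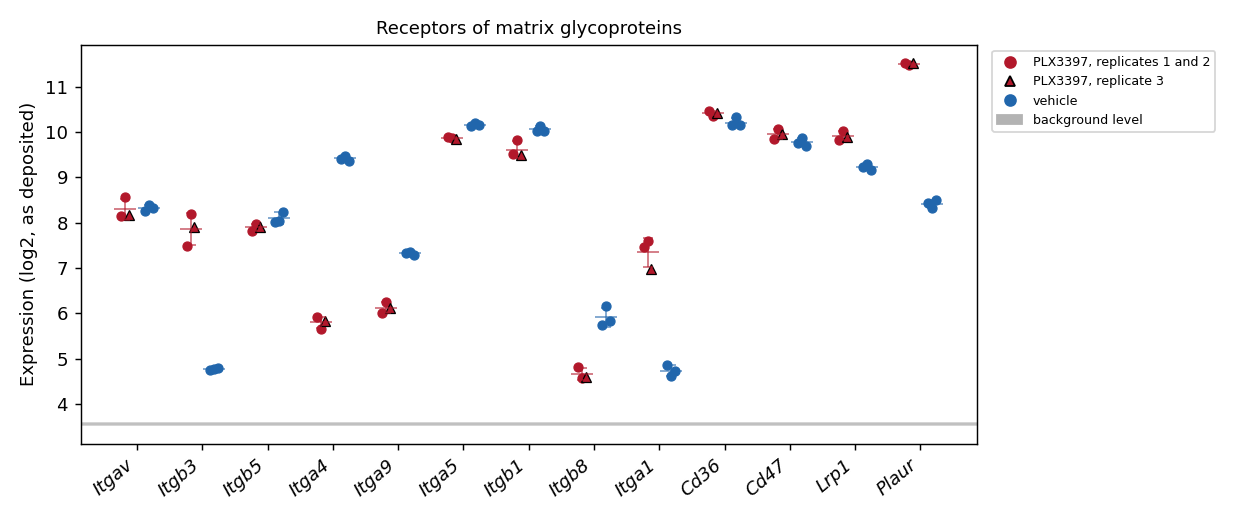
Deposited log2 expression (y axis) of 13 of the 24 receptor genes (x axis), with PLX3397 arrays in red to the left, replicate 3 as an outlined triangle, and vehicle arrays in blue to the right. Bars are the mean ± SD of 3 arrays and the grey band is the background level. Itgb3, Itga1 and Plaur lie higher and Itga4, Itga9 and Itgb8 lower on all 3 PLX3397 arrays, while Itgav overlaps.

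Plaur, the urokinase receptor, which also binds vitronectin, rose by 3.08 (SE 0.08) and the collagen receptor chain gene Itga1 by 2.61 (SE 0.15). Neither Cd36 nor Cd47, the receptors of thrombospondin 1, was called. Cd36 was at 10.46, 10.36 and 10.43 on PLX3397 arrays and at 10.15, 10.33 and 10.15 on vehicle arrays, a change of 0.21 (SE 0.08, adjusted p = 0.076). Cd47 had a change of 0.18 (SE 0.09, adjusted p = 0.155) with overlapping groups.

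Other matrix genes outside the 9 also moved in both directions. Of 38 measured glycoprotein genes 13 rose and 3 fell, with a median change of 0.21. Mfge8, which encodes an RGD-bearing bridge between phagocytes and dying cells, rose by 4.03 (SE 0.12) and Ecm1, which encodes extracellular matrix protein 1, by 1.82 (SE 0.11). The matricellular genes Ccn1 and Ccn2 fell by 2.44 (SE 0.19) and 1.71 (SE 0.23), and the third fall was that of Tnc, the tenascin C gene, at 0.77 (SE 0.15), named after its value was seen. Ccn2 was at 5.37, 5.33 and 6.12 on PLX3397 arrays and at 7.001, 7.20 and 7.75 on vehicle arrays, so that replicate 3 was the highest PLX3397 array, as it was for Sparc and Bgn, and lay below all vehicle arrays, as it did for Sparc. Without it the changes were -2.66 for Ccn1 and -1.97 for Ccn2. Without PLX3397 replicate 3, 11 of the 38 were called higher and 4 lower.

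Of 30 proteoglycan and hyaluronan genes 6 rose and 5 fell, with a median change of 0.10. Without PLX3397 replicate 3, 5 were called higher and 4 lower, and the median was 0.04, beside 0.04 over all genes. Among the calls over all 6 arrays, Hmmr lay below background throughout, and Has2 and Sdc2 were above it on 1 array each. Srgn, the serglycin gene of secretory granules, whose product is a CD44 ligand, was at 12.39, 12.39 and 12.42 on PLX3397 arrays and at 11.01, 11.08 and 10.97 on vehicle arrays and rose by 1.38 (SE 0.08). The glypican gene Gpc1 rose by 1.31 and the syndecan gene Sdc4 by 0.82, while Stab1, a scavenger receptor gene, fell by 0.74.

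A list of 8 measured genes held 7 galectin genes besides Lgals3 and Lgals3bp, which encodes a glycoprotein ligand of galectin 3 and is no galectin. Of the galectin genes 1, Lgals8, fell, by 0.45 (SE 0.09), and 0 were called higher, while Lgals3bp rose by 0.68 (SE 0.08). Without PLX3397 replicate 1, 4 of the 8 were called. Of 19 ADAM and ADAMTS protease genes besides Adam8, 4 rose and 5 fell, with a median change of 0.03. Adamts4, a versican- and aggrecan-cleaving protease gene, fell by 0.90 (SE 0.09), and the sheddase genes Adam10 and Adam17, whose products are known to cleave CD44, fell by 0.64 and 0.61. Adam23, not above background on any vehicle array, was at least 1.30-fold higher with PLX3397.

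Of 28 collagen and cross-linking genes 11 rose and 8 fell, with a median change of 0.15. The counts were 9 higher and 8 lower without PLX3397 replicate 3, and the median was 0.04, beside 0.04 over all genes. Lox, the collagen cross-linking oxidase gene, was at 8.77, 8.76 and 8.48 on PLX3397 arrays and at 10.99, 11.11 and 10.99 on vehicle arrays and fell by 2.36 (SE 0.10). The transglutaminase genes Tgm2 and F13a1, whose products cross-link fibronectin, rose by 1.72 (SE 0.10) and 1.53 (SE 0.18). Col5a1 rose by 1.03 (SE 0.08). Without vehicle replicate 3, 11 of the 28 were called in all. Over all genes 19.6% were called higher, 18.3% lower and 37.8% in either direction. The shares of these lists were not tested against them.

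**Figure D5:**
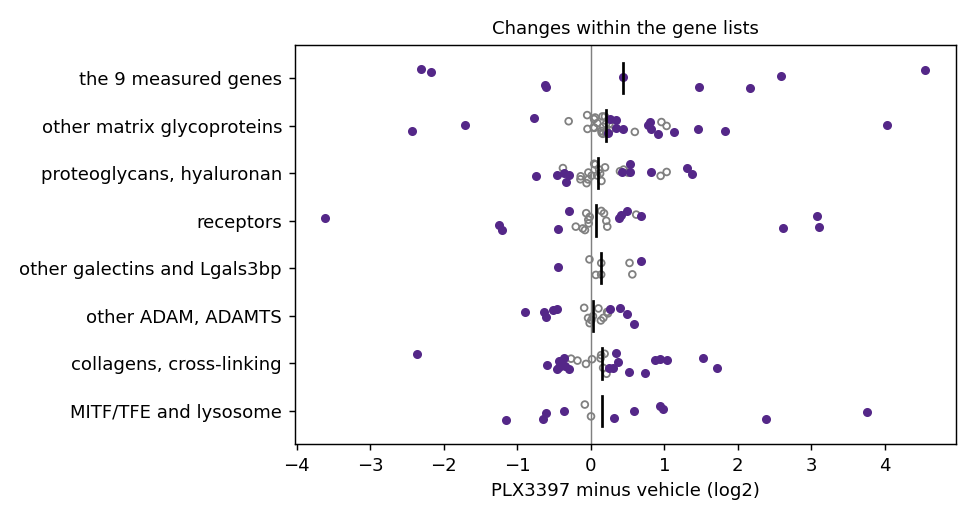
Change of each gene (x axis, PLX3397 minus vehicle, log2) in the 9 measured genes and in 7 gene lists (y axis), with filled points for genes called at a limma adjusted p under 0.05, open points for the others, vertical strokes for each median, and vertical scatter within a row only to separate points. Each list holds calls in both directions, and the medians lie between 0.03 and 0.44.

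RefSeq promoter entries (GRCm38.p6) matched 8 of the 10 genes by symbol, not Fn1 and Thbs1. The 250 bases before the start are shown for Sparc and for Bgn, whose profile lay nearest to that of Sparc. They are also shown for Adam8 and Lgals3, which rose without overlap. They lie on the - strand at chr11:55420081-55420330 (Sparc) and chr7:139992563-139992812 (Adam8) and on the + strand at chrX:73483351-73483600 (Bgn) and chr14:47373610-47373859 (Lgals3). The start given for Adam8 lies inside the span annotated for the gene, so a more upstream start exists. Capitals mark matches, on either strand, to any of 7 motifs, which are TGANTCA for AP-1, then TATAAA for the TATA box, then GGGCGG for the GC box, then CACGTG for the E-box, then GAGGAA for ETS factors, the CCAAT box by its own letters, and for STAT6 a TTC followed after any 4 bases by GAA, and adjoining or overlapping matches run together.
Sparc: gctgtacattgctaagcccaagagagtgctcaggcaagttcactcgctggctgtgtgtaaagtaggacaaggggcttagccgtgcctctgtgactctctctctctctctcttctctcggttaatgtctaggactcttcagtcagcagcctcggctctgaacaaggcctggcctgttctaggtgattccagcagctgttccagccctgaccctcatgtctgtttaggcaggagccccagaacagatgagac
Bgn: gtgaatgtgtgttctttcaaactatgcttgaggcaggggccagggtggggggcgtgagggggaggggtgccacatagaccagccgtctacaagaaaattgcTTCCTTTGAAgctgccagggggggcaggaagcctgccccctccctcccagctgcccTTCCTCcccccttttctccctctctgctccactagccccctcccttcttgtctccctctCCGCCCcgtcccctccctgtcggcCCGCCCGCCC
Adam8: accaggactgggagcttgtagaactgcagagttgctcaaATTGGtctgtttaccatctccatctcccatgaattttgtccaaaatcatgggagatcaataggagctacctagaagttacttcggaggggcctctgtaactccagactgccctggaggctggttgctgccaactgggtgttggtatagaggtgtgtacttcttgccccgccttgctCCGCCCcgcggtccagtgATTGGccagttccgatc
Lgals3: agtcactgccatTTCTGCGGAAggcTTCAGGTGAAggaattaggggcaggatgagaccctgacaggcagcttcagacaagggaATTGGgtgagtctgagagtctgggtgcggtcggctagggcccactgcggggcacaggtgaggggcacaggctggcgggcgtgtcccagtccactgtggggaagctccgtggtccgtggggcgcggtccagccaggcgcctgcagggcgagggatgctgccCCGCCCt

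The promoter windows of Sparc and Bgn had no motif match in common. That of Sparc held none of the 7 motifs, and that of Bgn held 3 GC boxes, the last 2 of them overlapping, 1 STAT6 motif and 1 ETS motif. That of Lgals3 held 2 STAT6 motifs, 1 GC box and 1 CCAAT box, and that of Adam8 held 1 GC box and 2 CCAAT boxes. Of 32851 promoter windows of the same length, 5.85% held the STAT6 motif, 32.7% the GC box, 33.8% the CCAAT box and 23.3% the ETS motif. Among the other measured genes the window of Cd44 also held 1 STAT6 motif and 2 ETS motifs, that of Vcan held 2 GC boxes and 1 CCAAT box, and that of Gpnmb held none of the 7. The starts given for Vcan and Cd44 also lie inside the spans annotated for these genes, that of Cd44 by only a few bases. These matches describe letters in the sequence and are not evidence of binding.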

How the data were processed

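The deposited log2 values, 1 per probe set of the Affymetrix Mouse Gene 1.0 ST array, were made by the authors in a way whose summarisation and normalisation no label or header records. MAS5 appears in the submitters' processing notes, without version or role. The log base was read from the range of the values, 1.57 to 13.5. Array medians differed by under 0.5, and no further scaling was applied. Of 28941 probe sets 21789 had a single symbol, and the brightest for each gene gave 19938 genes.

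The groups were compared by limma 3.58.1 under R 4.3.3 (two-sided, no covariate, Benjamini-Hochberg over all genes, threshold 0.05), after a check on simulated data. For 1 gene, 3 arrays against 3 allow an exact permutation p of 0.1 at the lowest. Precision is limited by the number of arrays. Batches were not analysed here.

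The members, the 15 lists (256 memberships, 243 measured, 1 of them by a synonym) and the naming rule were chosen with earlier results of these data known. The rule took all members, the 4 largest called changes of a list (6 for receptors), 8 known receptors, markers below background, and the 3 nearest profiles of each member that changed by at least 1 log2 without overlap. The 16 alternatives covered scaling, filters on dim genes, the replicate block, variance settings, array weights, the choice of probe set and leaving out each array.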

Additional observations from a re-analysis of the deposited data

How the results depend on the processing

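Over the 16 alternatives, Fn1 (4.44 to 4.70), Thbs1 (2.48 to 2.66), Adam8 (2.05 to 2.22), Lgals3 (1.36 to 1.51), Gpnmb (0.33 to 0.52) and Cd44 (-0.73 to -0.55) kept their direction and call, and no result reversed. Vcan, Sparc and Bgn kept their direction but each lost the call in 5. With robust variance the changes were -0.60 for Vcan (adjusted p = 0.067), -2.17 for Sparc (0.151) and -2.31 for Bgn (0.175), which left 1 of the 9 genes called lower. With quantile normalisation Vcan was at -0.53 (0.067). Leaving out 1 array at a time gave -0.76 to -0.32 for Vcan, -3.09 to -1.65 for Sparc and -3.35 to -1.77 for Bgn, and 1 to 4 genes called lower. Centring each array on its median moved the median change of all genes by -0.11, to -0.07, and left 2455 genes called higher, so that 34.2% of calls were upward, against 51.7% as deposited. It gave 2 called hepatocyte genes, 3 platelet genes and 3 neutrophil genes. Both filters on dim genes gave 3 called neutrophil genes and 0 lymphocyte genes, and a gene that fails a filter is not tested and cannot be called. Quantile normalisation and the use of all probe sets each gave 1 lymphocyte gene. With 1 array left out the called genes numbered 2 to 5 (fibroblast and stellate), 1 to 2 (hepatocyte), 3 to 5 (platelet), 3 to 5 (neutrophil), 1 to 2 (lymphocyte), 11 to 17 (collagens) and 2 to 4 (galectins with Lgals3bp). Over all genes same-numbered arrays did not deviate together (r of -0.010, 0.008 and -0.013). Such a correlation cannot tell whether a smaller set of genes deviates by replicate number. With the replicate number as a block the SE was 0.40 for Sparc, 0.41 for Bgn and 0.14 for Vcan, against 0.60, 0.68 and 0.20 without it. It was also lower for Fn1, at 0.11 against 0.12, and the same or higher for the rest of the 9 genes. In the block fit 3646 genes were called higher, 5 and 4 of the 9 genes kept their calls, 6 fibroblast and stellate genes were called and 1 lymphocyte gene. The causes of the differences between settings were not tested. Signal over background limits Bgn, which lay just above it on PLX3397 replicates 1 and 2.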
